A study of Mus musculus with 12 samples.

Results

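The integrated stress response and the unfolded protein response were followed through 35 genes, chosen by name out of the 55401 mouse genes in a table of counts. Of these, 16 form the ATF4 arm (the transcription factor Atf4, its partners and its known targets) and 19 form the ER arm (the sensors of the endoplasmic reticulum, or ER, with its chaperones, folding enzymes and degradation machinery). All 35 passed the filter on low counts of the main fit, and none was dropped from it. RNA sequencing had been run on 12 libraries in 4 groups of 3. The labels give the cells as B16F10, a cell line derived from a mouse melanoma. The control group carried the guide sgNC and no treatment, and the group named control_IR carried the same guide 24 h into a treatment that the labels call IR without spelling it out. The groups sgRnf19a and sgRnf19a_IR carried a guide against Rnf19a, which encodes a RING-type ubiquitin ligase, without and with the same treatment. Whether each guide line was a clone or a pool, and whether the 3 libraries in each group stem from different cultures, is not given in the sources used here, so p-values measure only the spread between these libraries, which may be technical.

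In the integrated stress response, kinases that sense amino acid shortage, double-stranded RNA, haem loss or misfolded ER proteins phosphorylate the initiation factor eIF2, which lowers protein synthesis and raises translation of the Atf4 message. ATF4 protein then drives genes for amino acid synthesis, redox control and feedback. The unfolded protein response starts from a trio of ER membrane sensors, PERK (Eif2ak3), IRE1 (Ern1) and ATF6, of which PERK feeds into the ATF4 arm while IRE1, through the factor XBP1, and ATF6 raise ER chaperones and ER-associated degradation.

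Several features of the libraries bear on every result. Total counts per library, times 1e6, were 62.7 to 71.3 without treatment and 34.3 to 45.6 with IR. Ribosomal RNA genes took 0.223% to 0.696% of counts in the former and 11.3% to 22.1% in the latter. Both run with the treatment in every library, so treatment and library make-up cannot be told apart here. Library D4 of sgRnf19a_IR lay on the untreated side of the first principal component (46.9% of variance, -42.1 against 51.0 and 86.7 for the other sgRnf19a_IR libraries), so fold changes that use this group are also given without it where they were called. Rnf19a mRNA, at 28.1 ± 6.09 CPM (TMM-scaled counts per 1e6; SD, n = 3) in control and 25.2 ± 2.43 (n = 3) in sgRnf19a libraries, did not separate the guides (log2 -0.16, SE 0.36, edgeR adjusted p = 0.881). With the treatment it was 5.94 ± 1.91 CPM in control_IR against 22.5 ± 13.6 in sgRnf19a_IR (n = 3 each), higher under the guide meant to disrupt it (log2 1.92; 1.32 without D4). The level of this message therefore checks no edit, and the guide comparisons are between libraries labelled control and sgRnf19a. Of 8 pigment cell markers, Tyr, Tyrp1, Mlana and Slc45a2 had no count in any library, and the highest counts were 4 for Dct, 17 for Sox10 and 29 for Pmel, while Mitf was present in all 12 libraries (10.7 to 15.5 counts per 1e6 in control). Among epithelial markers Krt8 was at 364 to 444 counts per 1e6 in control, but Cdh1 and Cldn4 had at most 14 and 4 counts. Among fibroblast markers Col3a1 was at 446 to 514 per 1e6, but Lum had at most 99 counts. Among immune markers Ptprc was at 3.72 to 6.24 and Lyz2 at 3.43 to 13.3 per 1e6 in control, but Cd3e had no count. The pigment cell markers thus do not bear out the labelled line, and the identity of the cells was not tested.

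Short promoter stretches are shown first, because the known elements of the factors of each pathway fell mostly to one arm each. RefSeq (GRCm38.p6) gave a window of 250 bases before to 50 after its start for 32 of the 35 genes. The RefSeq start can differ from the gene start in the deposited annotation. By the latter the printed stretches of Hspa5, Asns, Nupr1 and Vldlr lie inside the gene. The ER stress response element (ERSE), bound by ATF6 together with the CCAAT factor NF-Y, was searched on both strands as CCAAT, any 9 bases, then CCACG. It occurred in 39 of 32851 windows (0.119%) and in 37 of 27025 genes. Of the members, 6 held it, all in the ER arm. The stretches below run 5′ to 3′ on the gene's strand with the CCAAT and CCACG letters, or their reverse complements ATTGG and CGTGG, in capitals.
Hspa5, chr2:34772020-34772048, plus strand: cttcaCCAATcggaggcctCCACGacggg
Hsp90b1, distal match, chr10:86705633-86705661, minus strand: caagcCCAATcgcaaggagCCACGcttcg
Hsp90b1, proximal match, chr10:86705528-86705556, minus strand: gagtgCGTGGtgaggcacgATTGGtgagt
Dnajc3, chr14:118937822-118937850, plus strand: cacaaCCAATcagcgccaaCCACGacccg
Pdia6, chr12:17266486-17266514, plus strand: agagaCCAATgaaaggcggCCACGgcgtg
Syvn1, chr19:6046527-6046555, plus strand: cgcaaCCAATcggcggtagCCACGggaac
Creld2, chr15:88819515-88819543, plus strand: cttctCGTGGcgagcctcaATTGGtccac

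The composite C/EBP-ATF element through which ATF4 acts was searched as TGATGNAA on both strands, with no overlap with the other motifs counted. It occurred in 1304 windows (3.97%) and 1219 genes (4.51%). The members with it were Asns, Chac1, Nupr1, Trib3 and Vldlr of the ATF4 arm and Herpud1 of the ER arm, and the Trib3 match lay after the start and is not printed. A further element, TGACGTGG, was in 222 windows (0.676%) and in 0 of the members' windows. A match is a string of letters and not a measured binding site. Chac1, Nupr1, Vldlr and, in the ER arm, Herpud1 carried the same 8 letters on the reverse strand. The matches before the RefSeq starts of ATF4 arm genes are printed below in capitals, and that of Herpud1 is not printed.
Asns, chr6:7693220-7693237, minus strand: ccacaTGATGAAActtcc
Chac1, chr2:119351044-119351061, plus strand: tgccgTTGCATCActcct
Nupr1, chr7:126625568-126625585, minus strand: ccagaTTGCATCAgacag
Vldlr, chr19:27216815-27216832, plus strand: aatagTTGCATCAgcgct

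Per length, on the FPKM scale of the authors' deposited table (fragments per kilobase of transcript and library size), the ER chaperones stood at the top of the members in untreated control cells. Hsp90b1, which encodes the ER paralogue of HSP90, was at 394 ± 96.0 FPKM and Hspa5, which encodes the chaperone BiP, at 318 ± 7.56 (SD, n = 3 each). Next came Phgdh, of serine synthesis, at 243 ± 49.5, the disulfide isomerase Pdia6 at 151 ± 6.10 and Psat1, also of serine synthesis, at 148 ± 3.86. Pdia6 and Psat1 differed by less than their spread. Atf4 itself was at 129 ± 13.8 FPKM, close to Pdia4 at 133 ± 11.2. The sensors were low: Atf6 at 19.3 ± 2.07, Ern1 at 5.67 ± 0.585 and Eif2ak3 at 3.05 ± 0.405. The order ended with Cebpb at 0.965 ± 0.383 and Stc2 at 0.179 ± 0.0366, so Stc2, which encodes a secreted glycoprotein, was too low in every group for a comparison to carry weight.

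With IR in control cells the arms parted. Of the 16 ATF4 arm genes 12 were higher and 2 lower, while of the 19 ER arm genes 0 were higher and 9 lower (edgeR, adjusted p under 0.05), where over all 18183 genes tested 22.2% were higher and 25.7% lower. The median log2 fold change was 0.97 for the ATF4 arm and -0.29 for the ER arm, beside -0.02 over all genes. Under upper-quartile scaling these medians were 1.19, -0.07 and 0.19. In bulk RNA, fewer cells with a message and less of it per cell cannot be told apart. The plot of levels by library shows 12 of the members over the 4 groups.

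**Figure D1:**
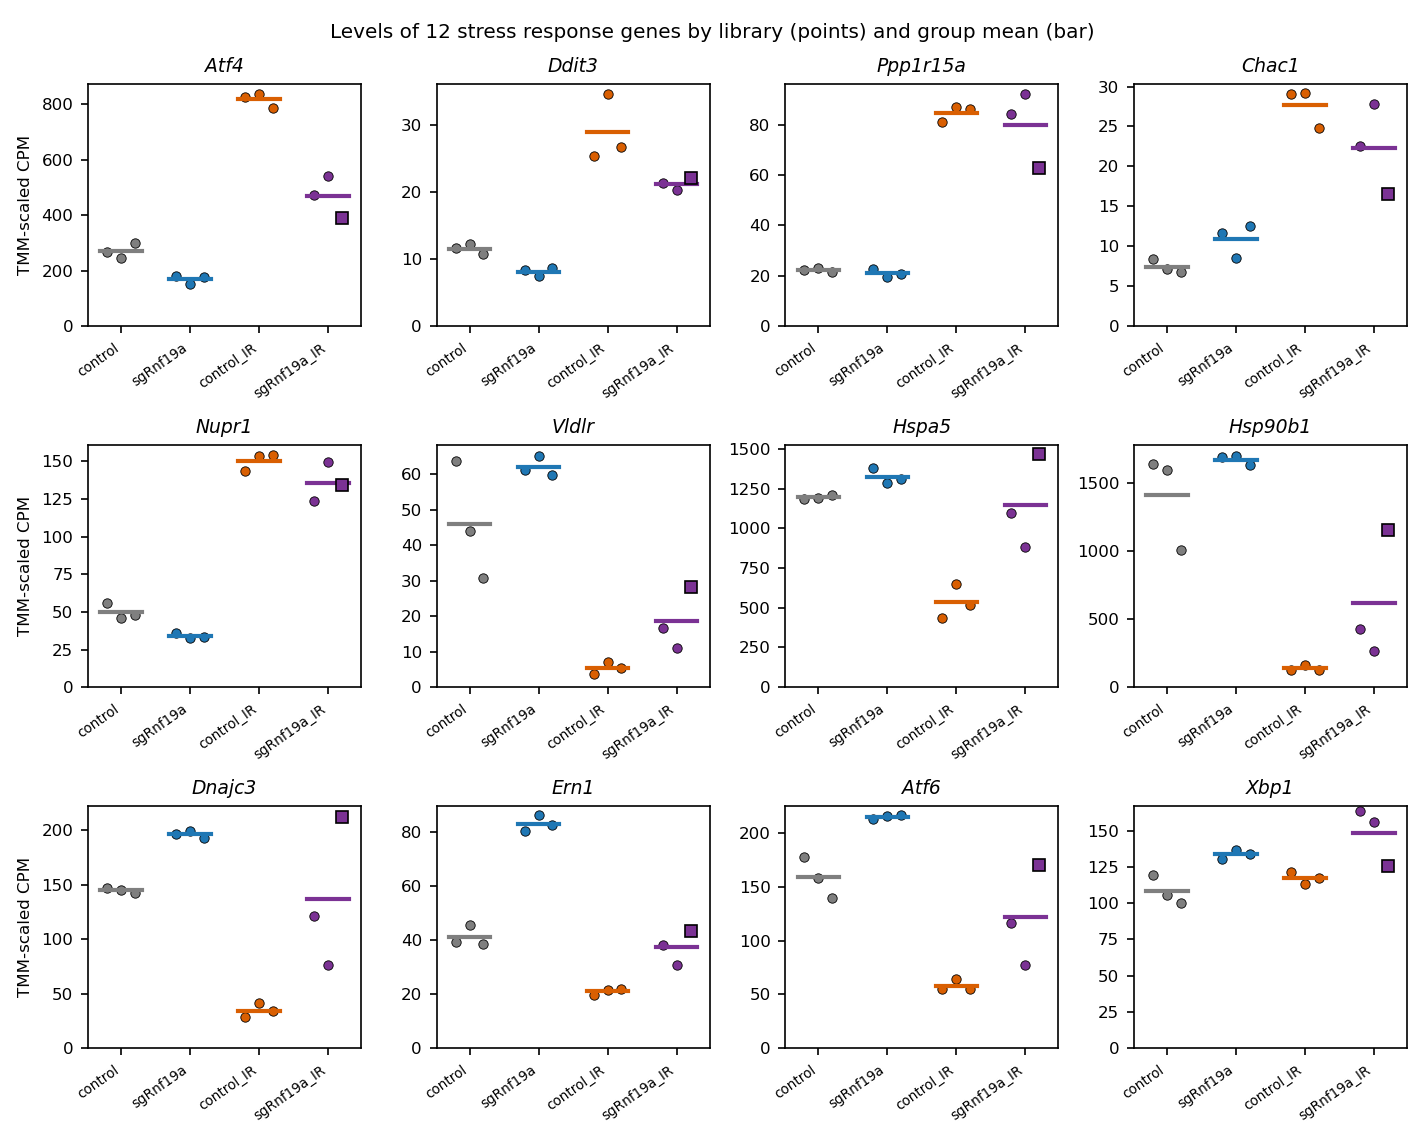
TMM-scaled CPM (linear axis from 0) of 12 members in each of the 12 libraries, with points for libraries, bars for group means and a square for library D4 of sgRnf19a_IR. Atf4, Ddit3, Ppp1r15a, Chac1 and Nupr1 lie higher in both IR-treated groups than in either untreated group, while Hsp90b1 was at 124 to 161 CPM in control_IR against 1011 to 1640 in control.

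All 5 transcription factors and regulators of the ATF4 arm rose with IR in control cells. Atf4 measured 266, 245 and 301 CPM in control and 828, 838 and 788 CPM in control_IR libraries, 3.02-fold higher (log2 1.59, SE 0.15, edgeR adjusted p = 3.89e-05). The libraries of the pair of groups did not overlap. Here and below, how many of all genes separate in this way was not counted. A lack of overlap therefore cannot be read as particular to these members. Ddit3, which encodes the pro-apoptotic factor CHOP, went from 11.6, 12.3 and 10.7 CPM to 25.3, 34.7 and 26.7 (log2 1.32, SE 0.15). Its annotation overlaps Mars on the opposite strand and a further gene entry of the same symbol, so its counts may be shared. Nupr1, a small stress-induced chromatin protein, rose from 55.7, 45.6 and 48.1 CPM to 143, 153 and 154 (log2 1.59, SE 0.13), again with no overlap. Cebpb, a C/EBP family partner of ATF4, had the largest rise of the arm, from a very low level, 0.747, 1.42 and 1.72 CPM against 6.53, 6.28 and 4.64 (log2 2.16, SE 0.38). Atf5, a paralogue of Atf4, was at 20.7, 16.2 and 28.1 CPM in control and 44.8, 40.9 and 36.5 in control_IR (log2 0.91, SE 0.25, edgeR adjusted p = 0.0105). Atf5, Cebpb and Ppp1r15a each overlap a protein-coding gene on the opposite strand, as do Shmt2, Syvn1, Pdia6 and Manf below. Manf also overlaps Rbm15b on its own strand. Whether counting used strand is not given in the sources used here.

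The 4 effector and feedback genes rose as well. Ppp1r15a encodes GADD34, the phosphatase subunit that reverses eIF2 phosphorylation, and it went from 22.5, 23.1 and 21.3 CPM to 81.2, 86.9 and 86.1 (log2 1.93, SE 0.15, edgeR adjusted p = 1.4e-05). Chac1, a glutathione-degrading enzyme, went from 8.40, 7.16 and 6.75 CPM to 29.1, 29.1 and 24.8 (log2 1.90, SE 0.21). For both genes every control_IR library lay above every control library. Trib3, a pseudokinase that restrains ATF4 and CHOP, rose by 1.04 on the log2 scale (SE 0.24). Ddit4, which encodes an mTORC1 inhibitor, was at 79.9, 51.1 and 73.6 CPM in control and 121, 120 and 142 in control_IR (log2 0.90, SE 0.27). The Ddit4 call was lost without control 2 (edgeR adjusted p = 0.0668) or without control_IR D5 (edgeR adjusted p = 0.0575).

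The 5 amino acid and one-carbon enzymes did not move as a block. Phgdh, which encodes the first enzyme of serine synthesis, rose by 1.27 (SE 0.25), Shmt2 by 0.85 (SE 0.26) and Asns, asparagine synthetase, by 0.31 (SE 0.11) on the log2 scale. Psat1, the next enzyme of serine synthesis after Phgdh, had a log2 fold change of 0.16 (SE 0.11, edgeR adjusted p = 0.235). Mthfd2, of the mitochondrial folate cycle, fell by 0.39 (SE 0.12). The smaller calls were fragile: that of Asns was lost when any 1 of 10 libraries was left out (edgeR adjusted p from 0.0508 to 0.166), that of Shmt2 without control 1, control 2 or control_IR D1, and that of Mthfd2 without control 1 or control_IR D5, which left 1 ATF4 arm gene lower. Vldlr, a lipoprotein receptor, fell by the most of the arm, from 63.7, 44.0 and 30.6 CPM to 3.83, 7.05 and 5.29 (log2 -3.09, SE 0.37, edgeR adjusted p = 9.28e-05). It was low in all 3 control_IR libraries, with no overlap. Stc2 reached at most 1.19 CPM in any library (log2 -1.21, SE 1.16, edgeR adjusted p = 0.427).

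In the ER arm the sensors fell with IR in control cells and Xbp1 did not pass the test. Eif2ak3 was at 19.2, 14.8 and 15.3 CPM in control and 9.23, 10.4 and 11.1 in control_IR (log2 -0.68, SE 0.15, edgeR adjusted p = 0.00238). Ern1 went from 39.4, 45.7 and 38.7 CPM to 19.7, 21.6 and 22.1 (log2 -0.96, SE 0.14). Atf6 went from 178, 159 and 140 CPM to 54.7, 64.7 and 55.3 (log2 -1.45, SE 0.23). All 3 sensors were lower in each control_IR library than in any control library. Xbp1, the factor spliced by IRE1, stood at 120, 105 and 100 CPM against 121, 113 and 117, and the groups overlapped (log2 0.11, SE 0.13, 95% interval -0.14 to 0.36). Gene counts do not separate the spliced from the unspliced Xbp1 message.

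Of the 11 chaperone and folding genes 4 fell with IR in control cells and 0 rose. Hsp90b1 fell from 1640, 1597 and 1011 CPM to 128, 161 and 124, 10.3-fold (log2 -3.36, SE 0.45, edgeR adjusted p = 0.000141). Dnajc3, a BiP co-chaperone, fell from 147, 146 and 143 CPM to 28.5, 41.2 and 33.9 (log2 -2.07, SE 0.29). Hspa5 fell from 1184, 1193 and 1213 CPM to 433, 651 and 516 (log2 -1.17, SE 0.19, edgeR adjusted p = 0.000381). In none of these did the groups overlap, and the control libraries of Hspa5 and Dnajc3 were nearly equal while control 3 was low for Hsp90b1. Pdia4 fell by 0.86 (SE 0.14). The other 7 (Dnajb9, Dnajb11, Pdia6, Sdf2l1, Hyou1, Creld2 and Manf) had log2 fold changes from -0.29 (Creld2) to 0.65 (Sdf2l1) and did not pass. Among the 4 genes of ER-associated degradation, Sel1l, the scaffold of the HRD1 ligase, fell from 101, 98.3 and 90.9 CPM to 34.7, 42.7 and 44.5 (log2 -1.25, SE 0.14). Edem1, a mannosidase-like recognition factor, fell by 0.997 (SE 0.13), whereas the ligase Syvn1 (0.10, SE 0.17) and Herpud1 (0.21, SE 0.12) did not pass. Without control 3, 2 ER arm genes were called higher, and without sgRnf19a_IR D3 or D4, 1. How many of all genes were called in those fits is not given here.

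**Figure D2:**
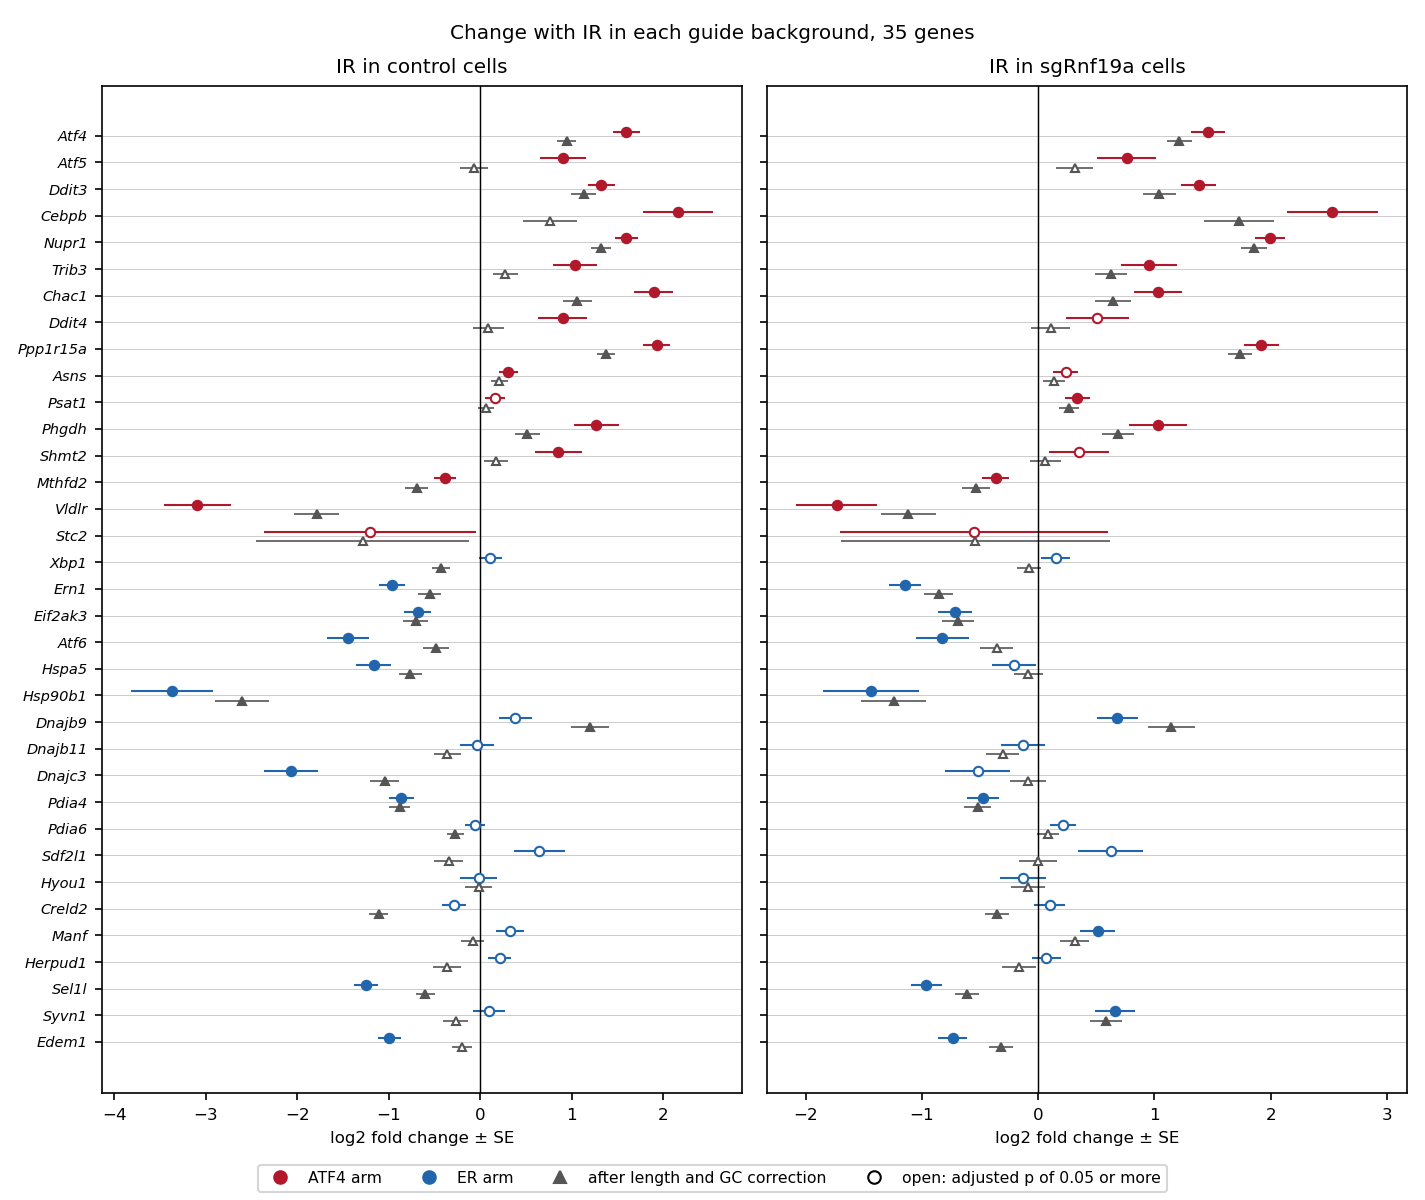
Log2 fold change with IR (x axis, bars are ± 1 SE) for the 35 members in control cells on the left and sgRnf19a cells on the right, with circles from the TMM-scaled fit and triangles after length and GC correction. Filled symbols passed an adjusted p of 0.05: the ATF4 factors and effectors lie to the right, and Vldlr and Hsp90b1 lie farthest to the left in both panels.

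Transcript length and GC content moved with the IR response, and the arms differ in both. The longest transcript had a median of 2022.5 bases and 55.6% GC in the ATF4 arm against 3222 bases and 50.5% GC in the ER arm. Over the 35 members Spearman's rho of the log2 fold change with IR in control cells was -0.71 for length and 0.67 for GC content, while over 13983 protein-coding genes it was -0.45 and 0.43; these correlations run across genes that share libraries and are given as a description. The median log2 level of long transcripts minus that of short ones was taken in each library. It ran from 1.42 to 2.49 without treatment and from -1.13 to 0.907 with IR, with the highest of the latter in D4. Short messages such as Atf4 (2019 bases) and Ddit3 (969 bases) rose, and long ones such as Vldlr (7971 bases), Atf6 (7246 bases) and Ern1 (6946 bases) fell. What part of each change goes with RNA length or composition was not tested beyond the correction that follows.

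**Figure D3:**
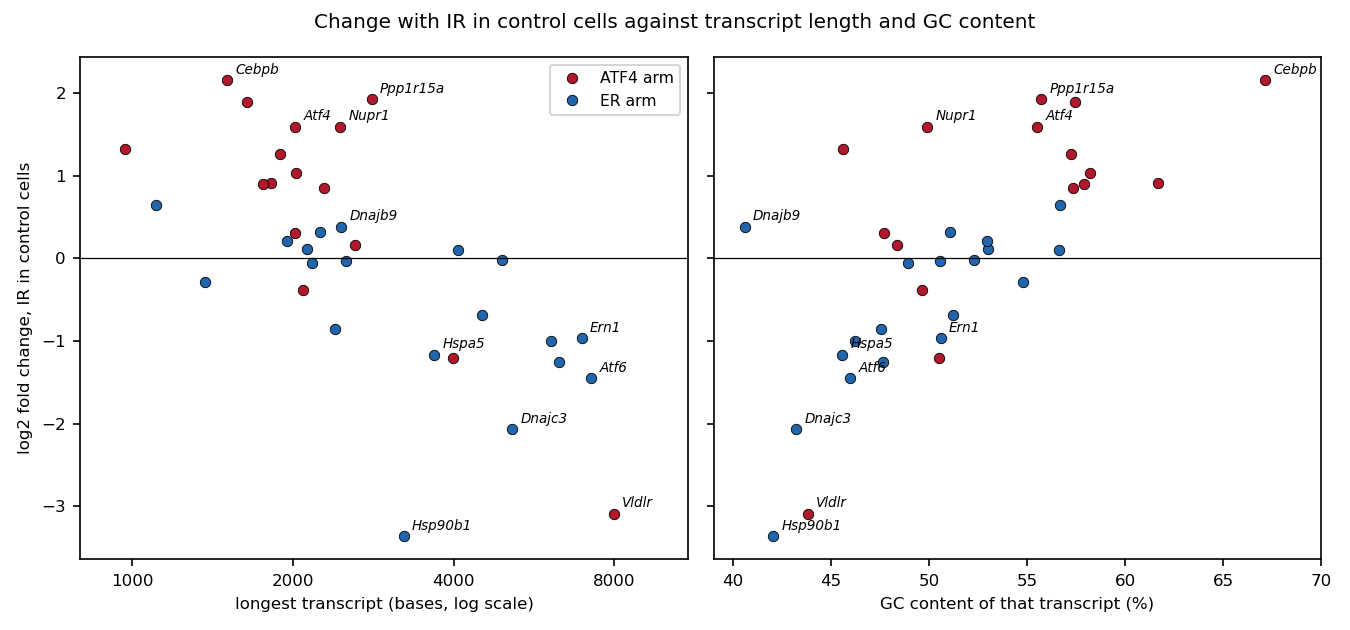
Log2 fold change with IR in control cells (y axis) of the 35 members against the length of the longest transcript (left, log axis, bases) and its GC content (right, %). Fold changes run downward with length (rho -0.71) and upward with GC content (rho 0.67), and Hsp90b1, with 3222 bases, lies below genes of like length.

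After offsets for length and GC content were fitted in each library, IR in control cells gave 6 of 16 ATF4 arm genes higher and 2 lower, against 17.7% and 26.4% of all genes, and 1 of 19 ER arm genes higher and 11 lower. The arm medians became 0.24 and -0.43, beside -0.18 over all genes. The 6 that rose under both fits were Atf4 (0.94), Ddit3 (1.13), Nupr1 (1.32), Chac1 (1.06), Ppp1r15a (1.37) and Phgdh (0.51). Atf5 turned to -0.07, and Trib3, Ddit4, Shmt2, Asns and Cebpb no longer passed, with log2 fold changes of 0.27, 0.09, 0.17, 0.21 and 0.76. Hsp90b1 (-2.60), Vldlr (-1.79), Dnajc3 (-1.04), Hspa5 (-0.77), Pdia4 (-0.88), Eif2ak3 (-0.71), Sel1l (-0.60), Ern1 (-0.56) and Atf6 (-0.49) still passed, and Edem1 (-0.20) did not. Dnajb9, an IRE1-regulated co-chaperone with the lowest GC content of the members (40.6%), was not called on the TMM scale and was called higher with the correction (1.20). Likewise Creld2 (-1.11), Xbp1 (-0.43) and Pdia6 (-0.27) were called lower with it. On log2(FPKM + 1) these 3 were called lower too (-0.74, -0.37 and -0.54), and Dnajb9 was at -0.08.

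With IR in sgRnf19a cells the ATF4 arm was again mostly higher. Of its 16 genes 10 were higher and 2 lower, and of the 19 ER arm genes 3 were higher and 7 lower, where 18.0% and 17.6% of all genes were called in these directions by edgeR. Without library D4 the counts were 12 and 2, and 4 and 9, beside 21.2% and 24.4% of 19217 genes. After length and GC correction they were 9 and 2, and 2 and 7, beside 18.2% and 19.4%. The median of the ATF4 arm was 0.86 (1.08 without D4, 0.47 corrected), and that of the ER arm was -0.13 (0.01 without D4, -0.16 corrected). The ER arm median thus lay near 0, and its sign turned when D4 was left out.

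Atf4 was at 180, 152 and 177 CPM in sgRnf19a and 474, 541 and, in D4, 389 CPM in sgRnf19a_IR libraries (log2 1.46, SE 0.15, edgeR adjusted p = 5.18e-05; 1.57 without D4). All 3 treated libraries lay above the untreated, with D4 the lowest. Ddit3 went from 8.32, 7.43 and 8.70 CPM to 21.4, 20.2 and 22.1 (log2 1.38, SE 0.15; 1.35 without D4). Ppp1r15a went from 22.9, 19.7 and 20.7 CPM to 84.3, 92.2 and 62.9 (log2 1.92, SE 0.15; 2.06 without D4). Here too each treated library exceeded each untreated one. Nupr1 rose from 36.0, 32.7 and 33.5 CPM to 124, 150 and 134 (log2 1.996, SE 0.13, with the same value without D4). Cebpb rose from 0.787, 0.792 and 0.895 CPM to 6.03, 5.86 and 2.45 (log2 2.53, SE 0.39; 2.84 without D4), the largest rise of the arm, at a level under 10 CPM. Phgdh (1.03), Chac1 (1.03), Trib3 (0.95), Atf5 (0.76) and Psat1 (0.34) were also called higher on the log2 scale, and Asns (0.24), Shmt2 (0.35) and Ddit4 (0.51) were not. Without D4 the 5 called values were 1.28, 1.20, 1.20, 0.96 and 0.35, and Shmt2 (0.64) and Ddit4 (0.79) passed as well. The calls of Atf5 and Psat1 were each lost without any 1 of the 3 sgRnf19a libraries, without sgRnf19a_IR D1 or D3, or without 1 control_IR library (D4 for Atf5, D5 for Psat1). Vldlr fell from 61.1, 65.0 and 59.8 CPM to 16.6, 11.0 and 28.2 (log2 -1.73, SE 0.35; -2.17 without D4), and Mthfd2 by 0.37 (SE 0.12; -0.49 without D4), a call that was lost without any 1 of the 3 sgRnf19a libraries or without sgRnf19a_IR D1 or D3.

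In the ER arm, the 3 sensors were lower with IR in sgRnf19a cells. Ern1 fell from 80.5, 86.3 and 82.6 CPM to 38.4, 31.0 and 43.4 (log2 -1.14, SE 0.14, edgeR adjusted p = 0.000151; -1.27 without D4). Eif2ak3 fell from 19.9, 21.3 and 17.9 CPM to 12.5, 12.2 and 11.4 (log2 -0.71, SE 0.15; -0.69 without D4). Atf6 fell from 214, 216 and 217 CPM to 117, 77.5 and 171 (log2 -0.82, SE 0.23; -1.15 without D4). The treated libraries were lower in each case, with D4 the highest of them for Ern1 and Atf6 and the lowest for Eif2ak3. The Atf6 value was -0.36 after length and GC correction, which did not pass (edgeR adjusted p = 0.0645). Xbp1 was at 130, 137 and 134 CPM untreated and at 164, 156 and 126 treated, so that D4 fell below the untreated libraries and the others lay above them (log2 0.15, SE 0.13).

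Hsp90b1 fell from 1690, 1699 and 1631 CPM to 426, 269 and, in D4, 1159 CPM in sgRnf19a cells (log2 -1.44, SE 0.42, edgeR adjusted p = 0.0188; -2.28 without D4). Sel1l fell from 120, 116 and 112 CPM to 65.9, 52.1 and 60.7 (log2 -0.96, SE 0.13; -0.98 without D4). In both genes no treated library reached the untreated. Hspa5 was at 1381, 1282 and 1313 CPM untreated and at 1097, 882 and 1469 treated, with D4 above every untreated library (log2 -0.21, SE 0.19, edgeR adjusted p = 0.432). Without D4 it passed the test (-0.43, edgeR adjusted p = 0.0434). Dnajc3 behaved alike, at 197, 199 and 193 CPM against 122, 76.7 and 213 (log2 -0.52, SE 0.28; -0.99 without D4, edgeR adjusted p = 0.000797). Edem1 (-0.73) and Pdia4 (-0.48) were also called lower, and Dnajb9 (0.68), Syvn1 (0.66) and Manf (0.51) higher. Without D4 these 5 values were -0.78, -0.59, 0.58, 0.81 and 0.60, and Sdf2l1 (0.89) passed as well. The Manf call was lost without sgRnf19a 1 or 2 or sgRnf19a_IR D1 or D3, and that of Pdia4 without sgRnf19a 2 or sgRnf19a_IR D1 or D3. Without sgRnf19a_IR D1, 0 ER arm genes were higher and 4 lower, since Hsp90b1, Atf6 and Pdia4 were lost, and without sgRnf19a 2, 1 was higher. How many of all genes were called in these 2 fits is not given here.

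Between the libraries labelled sgRnf19a and control, without treatment, 4 members were called. In the ATF4 arm 0 of 16 were higher and 3 lower, and in the ER arm 1 of 19 was higher and 0 lower, where 3.02% and 3.20% of all genes were called higher and lower by edgeR. Ern1, the IRE1 sensor, was at 39.4, 45.7 and 38.7 CPM in control and 80.5, 86.3 and 82.6 in sgRnf19a, 2.02-fold higher (log2 1.01, SE 0.14, edgeR adjusted p = 0.000795). Atf4 was 1.59-fold lower, at 180, 152 and 177 CPM against 266, 245 and 301 (log2 -0.67, SE 0.14, edgeR adjusted p = 0.0146). Neither pair of groups overlapped, and the Ern1 call held in each of the 25 alternative fits run for it. Atf5 was at 9.28, 8.96 and 10.8 CPM against 20.7, 16.2 and 28.1 (log2 -1.17, SE 0.25, edgeR adjusted p = 0.017). Nupr1 was at 36.0, 32.7 and 33.5 CPM against 55.7, 45.6 and 48.1 (log2 -0.55, SE 0.12, edgeR adjusted p = 0.0194). These libraries did not overlap either.

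The 3 lower ATF4 arm calls in untreated cells were not stable to leaving out a library: 0 of them passed without control 1, control 3, sgRnf19a 2 or sgRnf19a 3, and 1 without sgRnf19a 1. Without sgRnf19a_IR D4, which enters this comparison only through the shared fit, 5 were lower (Ddit3 and Ddit4 in addition) and 2 higher (Chac1 and Mthfd2), beside 5.93% lower and 5.08% higher over all genes. After length and GC correction 1 was higher (Chac1, 0.75) and 4 lower (Ddit3 in addition, -0.56), with 1 ER arm gene higher, where 4.91% and 4.63% of all genes were called higher and lower. Ddit3 was at 8.32, 7.43 and 8.70 CPM against 11.6, 12.3 and 10.7, without overlap (log2 -0.50, SE 0.15, edgeR adjusted p = 0.0752). The other sensors and Xbp1 had log2 differences from 0.27 (Eif2ak3) to 0.44 (Atf6) that did not pass. Hspa5 differed by 0.15 (SE 0.19, 95% interval -0.22 to 0.51). The median was -0.10 for the ATF4 arm (0.01 corrected) and 0.24 for the ER arm (0.23 corrected), beside 0.03 over all genes, and 16 of 19 ER arm values were above 0.

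Among IR-treated libraries the ER arm stood higher under the label sgRnf19a. Of its 19 genes 9 were higher and 0 lower, and in the ATF4 arm 2 of 16 were higher and 4 lower, where 21.0% and 12.8% of all genes were called higher and lower by edgeR. Without D4 the ER counts were 12 and 0 and the ATF4 counts 2 and 4, beside 15.9% and 9.47% of genes. With length and GC correction they were 10 and 0, and 5 and 2, beside 18.3% and 10.5%. The ER arm median was 0.34 (0.49 without D4, 0.51 corrected, 0.21 with upper-quartile scaling), beside 0.07 over all genes (0.16 corrected, -0.05 upper-quartile). That of the ATF4 arm was -0.18 and turned to 0.16 with the correction.

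Hsp90b1 was at 128, 161 and 124 CPM in control_IR and at 426, 269 and, in D4, 1159 CPM in sgRnf19a_IR (log2 2.17, SE 0.43, edgeR adjusted p = 0.0034; 1.34 without D4). Dnajc3 was at 28.5, 41.2 and 33.9 CPM against 122, 76.7 and 213 (log2 1.99, SE 0.29; 1.52 without D4). Hspa5 was at 433, 651 and 516 CPM against 1097, 882 and 1469 (log2 1.11, SE 0.19; 0.89 without D4). In these 3 chaperone genes every sgRnf19a_IR library lay above every control_IR library, and D4 was the highest. Atf6 was at 54.7, 64.7 and 55.3 CPM against 117, 77.5 and 171 (log2 1.06, SE 0.23; 0.74 without D4), and Ern1 at 19.7, 21.6 and 22.1 against 38.4, 31.0 and 43.4 (log2 0.83, SE 0.14, edgeR adjusted p = 0.00159; 0.72 without D4). Neither overlapped. Syvn1 (0.63), Dnajb9 (0.61), Pdia4 (0.60) and Sel1l (0.55) were also called higher, at 0.80, 0.52, 0.49 and 0.54 without D4, where Dnajb9 did not pass. Corrected for length and GC content, Hsp90b1 (1.40), Dnajc3 (1.24), Syvn1 (1.09), Ern1 (0.75), Hspa5 (0.72), Atf6 (0.52) and Pdia4 (0.51) remained called, and Dnajb9 was at -0.01 and Sel1l at 0.24.

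Xbp1 was at 121, 113 and 117 CPM in control_IR and 164, 156 and 126 in sgRnf19a_IR, without overlap (log2 0.34, SE 0.13, edgeR adjusted p = 0.0563), and it passed without D4 (0.45, edgeR adjusted p = 0.00612) and with the correction (0.70, edgeR adjusted p = 0.000462). Eif2ak3 was at 9.23, 10.4 and 11.1 CPM against 12.5, 12.2 and 11.4 (log2 0.24, SE 0.15) and did not pass in these fits. The calls of Dnajb9 and Syvn1 were each lost when single libraries of the IR-treated groups were left out, Dnajb9 without any of the 3 control_IR libraries or sgRnf19a_IR D1 or D4 and Syvn1 without control_IR D1 or D5 or sgRnf19a_IR D1.

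In the ATF4 arm of IR-treated libraries, Atf4 was at 828, 838 and 788 CPM in control_IR against 474, 541 and 389 in sgRnf19a_IR (log2 -0.81, SE 0.14, edgeR adjusted p = 0.00201; -0.69 without D4). Atf5 was at 44.8, 40.9 and 36.5 CPM against 15.1, 22.9 and 11.4 (log2 -1.31, SE 0.26; -1.10 without D4), and Ddit4 at 121, 120 and 142 against 68.9, 84.0 and 34.8 (log2 -1.03, SE 0.27; -0.74 without D4). All 3 were lower in each sgRnf19a_IR library. Ddit3 was at 25.3, 34.7 and 26.7 CPM against 21.4, 20.2 and 22.1 (log2 -0.44, SE 0.15, edgeR adjusted p = 0.0378; -0.47 without D4). The Ddit3 call did not hold without control_IR D4 (edgeR adjusted p = 0.175) or any 1 of 7 other libraries. Corrected for length and GC content, Atf5 (-0.49) and Ddit3 (-0.65) passed, and Atf4 (-0.27, edgeR adjusted p = 0.0795) and Ddit4 (-0.41, edgeR adjusted p = 0.087) did not. Vldlr was higher, at 16.6, 11.0 and 28.2 CPM against 3.83, 7.05 and 5.29 (log2 1.79, SE 0.36; 1.36 without D4), and Mthfd2 was higher by 0.40 (SE 0.12; 0.29 without D4), which left 1 gene higher when any 1 of the 3 control_IR libraries was omitted. Nupr1 (-0.15), Ppp1r15a (-0.09), Chac1 (-0.31) and Trib3 (-0.21) did not pass, and with the correction Ppp1r15a (0.41), Trib3 (0.42) and Phgdh (0.59) were called higher.

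Spearman's rho of this difference over the 35 members stood at 0.64 for length and -0.70 for GC content (0.27 and -0.51 over all 13983 genes), the opposite signs to IR in control cells, and 0.21 and -0.08 after the correction. Long relative to short transcripts were at -1.13 to -0.965 in control_IR and -0.747 to 0.907 in sgRnf19a_IR libraries. The share of the ER arm difference that goes with this was not tested further.

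**Figure D4:**
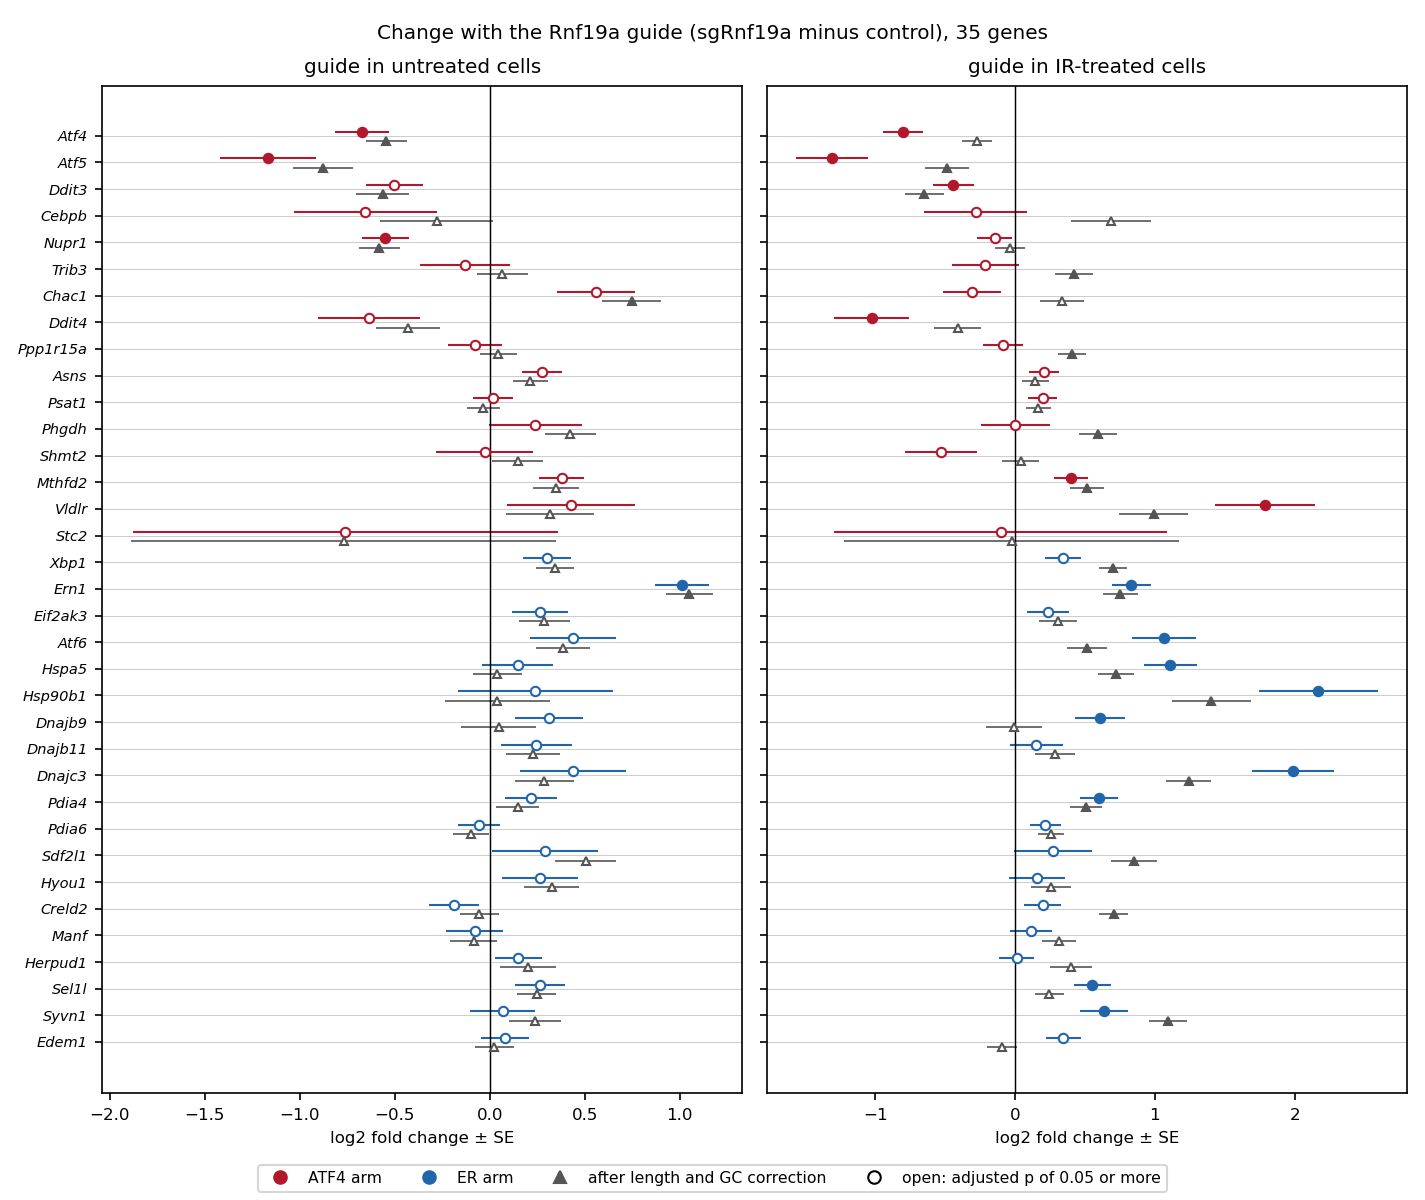
Log2 difference of sgRnf19a minus control libraries (x axis, bars are ± 1 SE) for the 35 members, untreated on the left and IR-treated on the right, with circles from the TMM-scaled fit, triangles after length and GC correction, and filled symbols for an adjusted p under 0.05. Untreated, 4 members are filled circles (Ern1 to the right; Atf4, Atf5 and Nupr1 to the left), and among treated libraries 9 ER arm genes are filled to the right.

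The difference between the IR responses of the guides was tested directly. In the ATF4 arm 0 of 16 genes passed in either direction, and in the ER arm 0 of 19, where edgeR called 0.544% of all genes higher (a response more positive in sgRnf19a cells) and 0.137% lower. At an unadjusted p under 0.05 there were 3 in the ATF4 arm and 4 in the ER arm. The largest were Hsp90b1 (log2 1.93, SE 0.58, edgeR adjusted p = 0.114), Dnajc3 (1.55, SE 0.40, edgeR adjusted p = 0.0929), Vldlr (1.36, SE 0.48, edgeR adjusted p = 0.151) and Hspa5 (0.96, SE 0.27, edgeR adjusted p = 0.101). DESeq2 called 1 in the ATF4 arm (Vldlr) and 3 in the ER arm (Dnajc3, Hspa5 and Hsp90b1). Without D4 these were smaller, at 1.10 for Hsp90b1, 0.93 for Vldlr and 0.75 for Hspa5, and 1 ER arm gene passed (Dnajc3, 1.09, edgeR adjusted p = 0.0387), beside 1.95% and 0.650% of genes higher and lower. With the correction 3 did (Creld2, Syvn1 and Dnajc3, at 0.76, 0.85 and 0.95), beside 1.99% and 0.660%. Without sgRnf19a_IR D3, 4 ER arm genes were called higher (Hspa5, Hsp90b1, Dnajc3 and Atf6), and in the ATF4 arm Vldlr was called higher and Chac1 lower. For DESeq2 and for the fit without D3 the shares of all genes called are not given here. Those counts therefore cannot be read as particular to the members. The response of Atf4 differed by -0.13 (95% interval -0.53 to 0.26) and that of Ern1 by -0.18 (95% interval -0.57 to 0.21), and neither passed. Without D4 they differed by -0.012 and -0.29.

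The balance of the arms within a library does not depend on how libraries are scaled. For each library the median over members, leaving out Stc2, of the log2 level relative to the control mean was taken in each arm, and the ER median was subtracted from the ATF4 median. This balance was -0.06 to 0.04 in control, -0.42 to -0.24 in sgRnf19a, 1.29 to 1.39 in control_IR, and 0.76, 0.80 and, in D4, 0.37 in sgRnf19a_IR. The 4 groups did not overlap. After length and GC correction it was -0.05 to 0.07, -0.29 to -0.06, 0.62 to 0.79, and 0.48, 0.67 and 0.16, and the treated groups then overlapped while control and sgRnf19a did not. The ATF4 median alone was 1.02 to 1.08 in control_IR and 0.45 to 0.81 in sgRnf19a_IR, but 0.21 to 0.37 and 0.31 to 0.59 after the correction, which turned the order of the groups with some overlap. The ER median was -0.31 to -0.27 and 0.02 to 0.08, and -0.46 to -0.41 and -0.16 to 0.14 after it, with the order kept and no overlap.

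**Figure D5:**
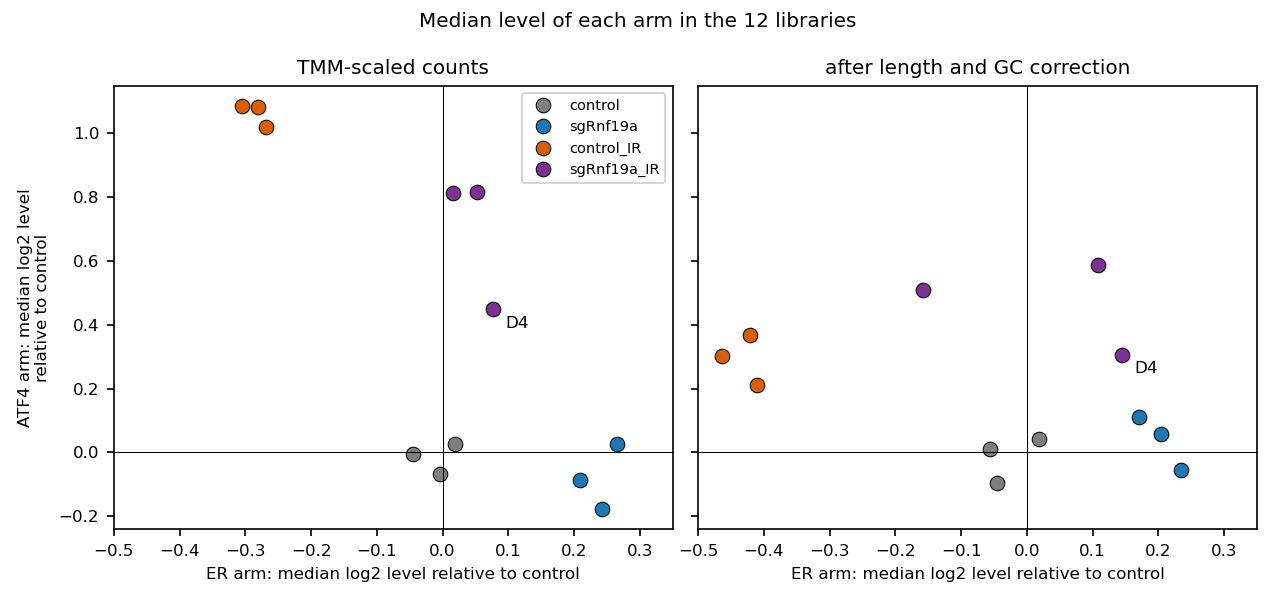
Median log2 level of the ATF4 arm (y axis) against that of the ER arm (x axis), both relative to the control mean, with 1 point per library, from TMM-scaled counts on the left and after length and GC correction on the right. The control_IR libraries lie at the upper left (ER arm -0.31 to -0.27, ATF4 arm 1.02 to 1.08), and D4 is the lowest of the sgRnf19a_IR libraries on the y axis in both panels.

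The 6 ER arm genes whose promoter stretches are printed above did not share one course with IR. In control cells 3 of them were lower and 0 higher, with log2 fold changes from -3.36 (Hsp90b1) to 0.10 (Syvn1) and a median of -0.73, against a median of -0.03 and 6 of 13 lower for the ER arm genes without the element. Between guides in IR-treated libraries 4 of the 6 were higher (Hsp90b1, Dnajc3, Hspa5 and Syvn1; median 0.87), against 5 of the 13 others (median 0.34). Without D4 the counts were 5 of 6 (median 0.84) and 7 of 13 (median 0.45). Of the 5 ATF4 arm genes with the C/EBP-ATF element, Chac1, Nupr1, Trib3 and Asns rose and Vldlr fell with IR in control cells. These are counts over few genes and no test was made between them.

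Other genes of the pathways were counted from lists of 41 on the side of the integrated stress response and 53 on that of the unfolded protein response. With IR in control cells 12 and 15 of the former were higher and lower, and 19 and 25 of the latter, beside 22.2% and 25.7% of all genes. After length and GC correction the counts were 9 and 13, and 18 and 27, beside 17.7% and 26.4%. Atf3, a stress-induced partner of the ATF4 network, rose by 3.49 (SE 0.27, edgeR adjusted p = 1.35e-05; 2.97 corrected), and Eif2ak4, the GCN2 kinase that senses uncharged tRNA, fell by 1.87 (SE 0.19; -1.63 corrected). On the other side Ero1l, an ER oxidase, fell by 2.27 (SE 0.26; -1.21 corrected) and Vcp, the ATPase that extracts ER proteins for degradation, by 1.005 (SE 0.12; -1.18 corrected).

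In sgRnf19a cells 8 and 9 genes on the integrated stress side, and 16 and 14 on the unfolded protein side, were higher and lower with IR, beside 18.0% and 17.6% of all genes. Without D4 the counts were 12 and 13, and 19 and 20, beside 21.2% and 24.4%. After the correction they were 9 and 12, and 17 and 17, beside 18.2% and 19.4%. Atf3 rose there by 4.12 (SE 0.27; 4.19 without D4, 3.88 corrected). Of the ER membrane, Selenok rose by 1.67 (1.83 without D4, 1.63 corrected) and Sec61b by 1.35 (1.45 without D4, 0.63 corrected). Gpt2, an alanine transaminase, fell by 1.09 (-1.09 without D4, -1.20 corrected).

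Between guides, untreated libraries gave 1 gene higher on each side and 0 lower, beside 3.02% and 3.20% of all genes. Without D4 in the shared fit these were 5 and 2 on the integrated stress side and 5 and 1 on the other. Over all genes 5.08% were then higher and 5.93% lower. After the correction the counts were 5 and 1, and 5 and 0, beside 4.91% and 4.63%. The genes called were Pdia5, a disulfide isomerase (log2 1.36, SE 0.16, edgeR adjusted p = 0.000269), and Tars, threonyl-tRNA synthetase (0.56, SE 0.12). Both were again higher in the IR-treated libraries labelled sgRnf19a, by 1.47 (1.55 without D4, 1.87 corrected) and 0.92 (0.85 without D4, 0.61 corrected). Ero1lb, another ER oxidase, was higher by 1.79 (1.72 without D4, 1.25 corrected). Crebrf, a regulator of the CREB3 factor, was higher by 3.52, a value that was smaller without D4 (2.69) and corrected (2.40). There 10 and 5 genes on the integrated stress side, and 19 and 4 on the unfolded protein side, were higher and lower, beside 21.0% and 12.8% of all genes. Without D4 the counts were 8 and 3, and 20 and 3, beside 15.9% and 9.47%. After the correction they were 10 and 2, and 21 and 3, beside 18.3% and 10.5%. For the difference between IR responses 0 passed on either side, beside 0.544% of all genes higher and 0.137% lower. Crebrf was higher without D4 (2.47, beside 1.95% of genes) and with the correction (2.39, beside 1.99%). Gdf15, a secreted stress factor of the integrated stress side named after its values were seen, was lower without D4 (-1.30, beside 0.650%).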

How the data were processed

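Per the labels' protocols, RNA was depleted of ribosomal RNA, made into strand-marked libraries and read as short pairs. The submitters' processing notes name Bowtie2, HTSeq, DESeq2 and 2 builds (mm10, GRCm39), with no role or version. The authors deposited gene counts and FPKM values with 1 column per library, per the file headers. Among genes with long transcripts the deposited counts held the value 4 in 5958 cases, 3 in 989 and 5 in 1000, so they were taken as estimated counts. The FPKM values that the authors deposited served for levels between genes and as an alternative. A further 12 per-sample columns were not used. Columns with a D do not mention IR; no other group in the labels is free for them, so they were taken as IR-treated, and their numbers are not those of the labels.

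Genes kept by edgeR's filterByExpr (version 4.0.16, minimum count of 10 and total of 15) were TMM-scaled, and a quasi-likelihood model of the 4 groups was fitted to all 12 libraries (robust glmQLFit, then a 2-sided glmQLFTest, in R 4.3.3). P-values were adjusted by Benjamini and Hochberg's method over the 18183 genes tested and called under 0.05. For the correction, natural splines of 5 degrees of freedom each on transcript length and GC content (GENCODE) entered as offsets in each library. Alternatives used DESeq2 1.42.0, limma 3.58.1 on log2(FPKM + 1), other scalings and filters, and left out each library in turn. Fits were also run on simulated counts in which few genes changed and none drifted with length or GC content. Such a run cannot show how the fits behave under the shifts seen here. In each group every pair of libraries differed by more than counting noise (chi-square per degree of freedom of 6.64 or more). All 35 members are named, with values by library for Atf4, Ddit3, Hspa5, Xbp1, the sensors and up to 4 called members per arm and comparison with the largest change. Up to 4 other pathway genes per comparison are named by smallest p. Members, lists and tests were chosen with earlier results of these data known. Protein sequences were not used here.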

Additional observations from a re-analysis of the deposited data

How the results depend on the processing

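Counts below are of members called, with the arm and direction named, and those of the TMM-scaled fit are given above. Mainly counts that moved far from that fit are listed, so a count left out need not be unchanged. All genes move with the setting too. With IR in control cells their median was -0.02 in the TMM-scaled fit and 0.19 with upper-quartile factors. The shares of all genes called under most of these settings are not given here. The counts are therefore not a result about the members alone. With length and GC correction, IR in control cells gave 6 ATF4 arm genes higher and 1 ER arm gene higher, the guide in untreated cells 1 ATF4 arm gene higher, the guide in IR-treated cells 5 ATF4 arm genes higher and 2 lower, and the difference between IR responses 3 ER arm genes higher. Reversed by it were Atf5 (-0.070) and Xbp1 (-0.43) with IR in control cells, Creld2 (-0.35) with IR in sgRnf19a cells, and Trib3 (0.42), Ppp1r15a (0.41) and Dnajb9 (-0.0092) between guides after IR. With D4 left out as well, an alternative chosen after seeing the data, the counts for IR in control cells were 7 ATF4 arm and 1 ER arm genes higher. Those for the guide in untreated cells were 3 ATF4 arm and 5 ER arm genes higher, those for the guide after IR 5 ATF4 arm genes higher and 2 lower, and the difference gave 2 ER arm genes higher. Then Atf5 was at -0.029, Xbp1 at -0.42 and Herpud1 at -0.35 with IR in control cells, Herpud1 at -0.37 and Creld2 at -0.35 in sgRnf19a cells, and Trib3 at 0.48 and Ppp1r15a at 0.35 between guides after IR.

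Upper-quartile factors gave 1 ATF4 arm gene lower and 4 ER arm genes higher with IR in control cells, 1 ATF4 arm gene lower in sgRnf19a cells and 1 higher between guides after IR. A minimum of 1 CPM in 3 libraries, which left 15 ATF4 arm genes tested, and counts divided by 4 each gave 3 ER arm genes higher with IR in control cells. Fits of only the 2 groups compared gave 1 ER arm gene higher with IR in control cells, 1 ATF4 arm and 4 ER arm genes lower in sgRnf19a cells, 1 ATF4 arm gene higher and 5 lower and 3 ER arm genes higher for the guide in untreated cells, and 1 ATF4 arm and 5 ER arm genes higher for the guide after IR. DESeq2 gave 1 ATF4 arm gene higher for the guide in untreated cells, and 1 ATF4 arm and 3 ER arm genes higher for the difference.

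On the scale of log2(FPKM + 1), fitted with limma, the median gene moved by -0.34 and -0.40 with IR. Here and with a pseudocount of 0.1, 15 ATF4 arm genes were tested. On log2(FPKM + 1), IR in control cells gave 8 ATF4 arm genes higher and 3 lower, and 14 ER arm genes lower. IR in sgRnf19a cells gave 6 ATF4 arm and 0 ER arm genes higher and 13 ER arm genes lower, and the guide after IR 1 ATF4 arm gene higher. Asns (-0.18), Psat1 (-0.33) and Xbp1 (-0.37) reversed in control cells, and Psat1 (-0.12), Herpud1 (-0.38) and Creld2 (-0.36) in sgRnf19a cells. A pseudocount of 0.1 gave the same counts of 6, 0, 13 and 1, with Asns at -0.18, Psat1 at -0.33 and Xbp1 at -0.38, and Psat1 at -0.12, Herpud1 at -0.39 and Creld2 at -0.37. Without a filter 7 ATF4 arm genes were higher with IR in control cells, 5 ATF4 arm and 0 ER arm genes higher and 11 ER arm genes lower in sgRnf19a cells, and 0 ATF4 arm and 4 ER arm genes higher for the guide after IR, with Asns at -0.18 in control and Psat1 at -0.12 and Herpud1 at -0.38 in sgRnf19a cells. Where these values turned or lost a call, the cause was not tested.

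Leaving out each library in turn, counts ranged with IR in control cells from 1 to 2 (ATF4 arm lower) and from 0 to 2 (ER arm higher). In sgRnf19a cells they ranged from 1 to 2 (ATF4 arm lower), from 0 to 4 (ER arm higher) and from 4 to 9 (ER arm lower), and for the guide in untreated cells from 0 to 2 (ATF4 arm higher) and from 0 to 5 (ATF4 arm lower). They ranged from 1 to 2 (ATF4 arm higher) for the guide after IR, and for the difference from 0 to 1 in each direction of the ATF4 arm and from 0 to 4 (ER arm higher). No member changed sign with a call in these fits. Among ATF4 arm genes, 9 were higher with IR in control cells without control 2, and 10 without control 1 or control_IR D1, against 12 with all libraries. With IR in sgRnf19a cells 8 were higher without sgRnf19a 1, 2 or 3, against 10. With the replicate block, which could be fitted only for the guide in untreated cells, 0 ATF4 arm genes were higher and 3 lower and 1 ER arm gene was higher and 0 lower, and no member's call changed. The untreated libraries of number 1, 2 and 3 did not deviate together across guides (correlations -0.16, -0.01 and 0.03). The numbers of the IR-treated columns are not those of the labels and were not checked. Low counts limit what Stc2, with at most 1.19 CPM, and Cebpb can show.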
